A study of Mus musculus with 24 samples.

Results

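A set of 9 carriers of bile acids and other organic anions in the basolateral (sinusoidal) membrane of hepatocytes were followed in mouse liver by RNA sequencing. They were taken by gene symbol from a table of 49315 genes, and all 9 were present once. 5 of them take up anions from portal blood (Slc10a1, Slco1a1, Slco1a4, Slco1b2 and Slco2b1), and 4 return anions to the blood (Abcc3, Abcc4, Slc51a and Slc51b). 8 of the 9 passed the filter on low counts and were tested among 17216 genes, and Slc51a did not pass. There were 4 groups of 6 libraries. Tumour-bearing livers carried AKT and YAP1, integrated by a transposon, which leads to cancer of the bile duct (cholangiocarcinoma). They came from wild-type mice (labelled CCA.Wild-type) or from Mdr2-/- mice (CCA.Mdr2-/-). Control livers had the empty transduction in wild-type mice (Ctrl.Wild-type) or in Mdr2-/- mice (Ctrl.Mdr2-/-). Mdr2-/- mice lack Abcb4, the canalicular exporter of phospholipid, in both arms, so that every Mdr2-/- library, controls included, comes from a liver without it. The labels used here give no age, sex or strain background, and do not say which liver cells took up the transposon or what drives the oncogenes. They call the tissues individual but do not state that each came from a separate animal, so p-values reflect only how far these samples spread.

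Hepatocytes take conjugated bile acids from sinusoidal blood chiefly through Slc10a1 (NTCP), which couples uptake to sodium, and take up unconjugated bile acids, bilirubin, hormones and drugs through the sodium-independent Slco (OATP) carriers. Bile acids normally leave the cell across the canalicular membrane into bile. In cholestasis the uptake carriers are known to fall and the basolateral exporters to rise, among them Abcc3 (MRP3), Abcc4 (MRP4) and the pair Slc51a and Slc51b (OSTα and OSTβ), which transport only as a heteromer. The nuclear receptor FXR (Nr1h4), which binds bile acids, is a known activator of the Slc51 genes.

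The promoters of 4 members are shown because their levels moved most: Slco1b2, Slco1a1 and Slc10a1, which all fell in the absence of Abcb4, and Slc51b, which rose. Windows run from 250 bases before to 50 after a start site, 5′ to 3′ on the strand of the gene, from RefSeq on GRCm38.p6. 8 of the 9 members had a window. Capitals mark the matches to the motifs searched.

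Slco1b2 (chr6:141629268-141629567, plus strand): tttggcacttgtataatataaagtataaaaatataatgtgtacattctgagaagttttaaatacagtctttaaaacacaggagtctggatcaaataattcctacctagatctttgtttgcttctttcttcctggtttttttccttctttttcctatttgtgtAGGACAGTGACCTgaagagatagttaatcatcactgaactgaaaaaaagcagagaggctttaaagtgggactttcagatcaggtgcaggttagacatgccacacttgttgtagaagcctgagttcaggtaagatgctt

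Slco1a1 (chr6:141946913-141947212, minus strand): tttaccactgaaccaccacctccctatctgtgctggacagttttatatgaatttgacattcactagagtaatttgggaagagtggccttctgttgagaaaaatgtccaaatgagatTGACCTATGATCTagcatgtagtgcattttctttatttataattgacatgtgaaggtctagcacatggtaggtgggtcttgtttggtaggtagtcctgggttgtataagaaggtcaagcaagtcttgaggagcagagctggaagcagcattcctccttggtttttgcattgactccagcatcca

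Slc10a1 (chr12:80968656-80968955, minus strand): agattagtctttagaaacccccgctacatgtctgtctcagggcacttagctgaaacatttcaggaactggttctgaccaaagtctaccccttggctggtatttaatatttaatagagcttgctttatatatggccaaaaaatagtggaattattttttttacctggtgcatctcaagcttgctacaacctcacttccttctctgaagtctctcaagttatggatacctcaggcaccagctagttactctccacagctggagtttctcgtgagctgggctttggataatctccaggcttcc

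Slc51b (chr9:65422724-65423023, minus strand): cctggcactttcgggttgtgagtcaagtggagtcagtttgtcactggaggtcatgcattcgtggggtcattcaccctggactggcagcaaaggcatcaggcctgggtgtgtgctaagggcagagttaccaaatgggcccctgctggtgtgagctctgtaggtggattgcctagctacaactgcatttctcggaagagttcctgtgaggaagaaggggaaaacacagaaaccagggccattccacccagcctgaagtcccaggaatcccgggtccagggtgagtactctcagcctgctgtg

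The letters reported here were an inverted repeat, AGGTCANTGACCT, of the kind FXR binds, and a direct repeat, AGGTCANAGGTCA, of the kind HNF4α binds, both searched on both strands with up to 2 mismatches, and TGACNNNGC, searched on both strands without mismatch. Slco1b2 holds the inverted repeat with 1 mismatch, 88 to 76 bases before its start site. Of 32851 promoters, 1.14% hold such a match. Slco1a1 holds the direct repeat with 1 mismatch on the minus strand of its window, 134 to 122 bases before the start, and 3.86% of promoters hold one. None of these letters were found in the windows of Slc10a1 and Slc51b. Both windows of Abcc4 hold TGACNNNGC, as do 12.4% of promoters. These are matches of letters only. Slco1b2 (ENSMUSG00000030236), Slco1a4 (ENSMUSG00000030237) and Slco1a1 (ENSMUSG00000041698) lie in one stretch of chromosome 6, in this order, between Slco1c1 on one side and Slco1a6 and Slco1a5 on the other. The other members are Slco2b1 (ENSMUSG00000030737, chromosome 7), Slc51b (ENSMUSG00000053862, chromosome 9), Abcc3 (ENSMUSG00000020865, chromosome 11), Slc10a1 (ENSMUSG00000021135, chromosome 12), Abcc4 (ENSMUSG00000032849, chromosome 14) and Slc51a (ENSMUSG00000035699, chromosome 16).

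Libraries held 20976459 to 30288385 counts. Abcb4, the targeted gene, was at 165 CPM or more in every wild-type library and at 59.3 CPM or less in every Mdr2-/- library, where CPM are counts scaled to library size with TMM factors. The tissue label was checked against 15 hepatocyte markers, none of which was at 0 in all libraries. Among controls their summed level was 129613 to 158231 CPM with Abcb4 and 87910 to 108584 CPM in those lacking Abcb4. With tumours it was 60251 to 108300 CPM in wild-type and 36557 to 73133 CPM in Mdr2-/- tumour-bearing livers. Alb alone averaged 83414 CPM in wild-type controls. Of the 15 markers, 7 fell and 1 rose in Mdr2-/- controls, beside 24.3% and 26.2% of all genes. In tumour-bearing livers 10 fell and none rose in either genotype, beside 11.5% of all genes fallen in wild type and 17.0% in Mdr2-/-. The summed level of 16 cholangiocyte markers was 219 to 330 CPM and 362 to 607 CPM in the controls of wild-type and Mdr2-/- mice, and 422 to 1651 CPM and 1344 to 4296 CPM in their tumour-bearing livers. This sum rested largely on Spp1 and Aqp1, at means of 71.2 and 151 CPM in wild-type controls. In Mdr2-/- tumour-bearing livers Spp1 was at 2174 CPM and Krt19 at 16.3 CPM. Of the 16 markers, 14 rose in Mdr2-/- controls, beside 26.2% of all genes. With tumours 10 rose in wild type and 7 in Mdr2-/-, beside 16.9% and 17.9%, and none fell in these comparisons. In bulk tissue, fewer hepatocytes and less carrier RNA per hepatocyte cannot be told apart, and this holds for each fall described here. A further measure that differed between libraries was the share of counts in 7 nuclear non-coding RNAs, which in controls was 2.91 to 5.42% in wild type and 1.74 to 4.29% in Mdr2-/-. In tumour-bearing livers it was 2.30 to 6.51% in wild type and 4.60 to 7.95% in Mdr2-/-. On the main axes of variation over all tested genes (principal components), 2 tumour-bearing libraries lay apart from the other 5 of their groups. Wild-type replicate 6 was at -40.8 on the second axis, with the others at 11.7 to 40.1. Mdr2-/- replicate 1 was at -9.82 on the first axis, with the others at -63.3 to -43.5.

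On a scale per length (TPM), Slco1b2 was the most abundant of the 9 carriers in each group, followed by Slco1a1 and Slc10a1 in either order. In wild-type controls Slco1b2, which takes up bilirubin and drugs, was at 1239 ± 335 TPM (SD, n = 6), and Slco1a1, a carrier of steroid and bile acid conjugates, at 752 ± 136 TPM. Slc10a1 stood at 602 ± 94.8 TPM, which overlapped with Slco1a1. Abcc3 at 116 ± 28.9 TPM and Slco1a4, an uptake carrier that also transports digoxin, at 99.2 ± 23.0 TPM did not differ beyond their spread, and Slco2b1, which takes up sulphated steroids, followed at 41.3 ± 12.9 TPM. Abcc4 at 4.17 ± 1.01 TPM and Slc51b at 3.28 ± 1.21 TPM again overlapped, and Slc51a was last at 0.0572 TPM. The order differed in Mdr2-/- controls at 2 places. Slco1a1 at 310 ± 58.2 TPM and Slc10a1 at 367 ± 133 TPM overlapped there, and Slc51b, at 50.1 ± 24.2 TPM, was level with Slco2b1 at 53.3 ± 16.3 TPM. In Mdr2-/- tumour-bearing livers, too, Slc51b at 6.74 to 27.3 TPM lay above Abcc4 at 3.69 to 6.55 TPM.

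**Figure D1:**
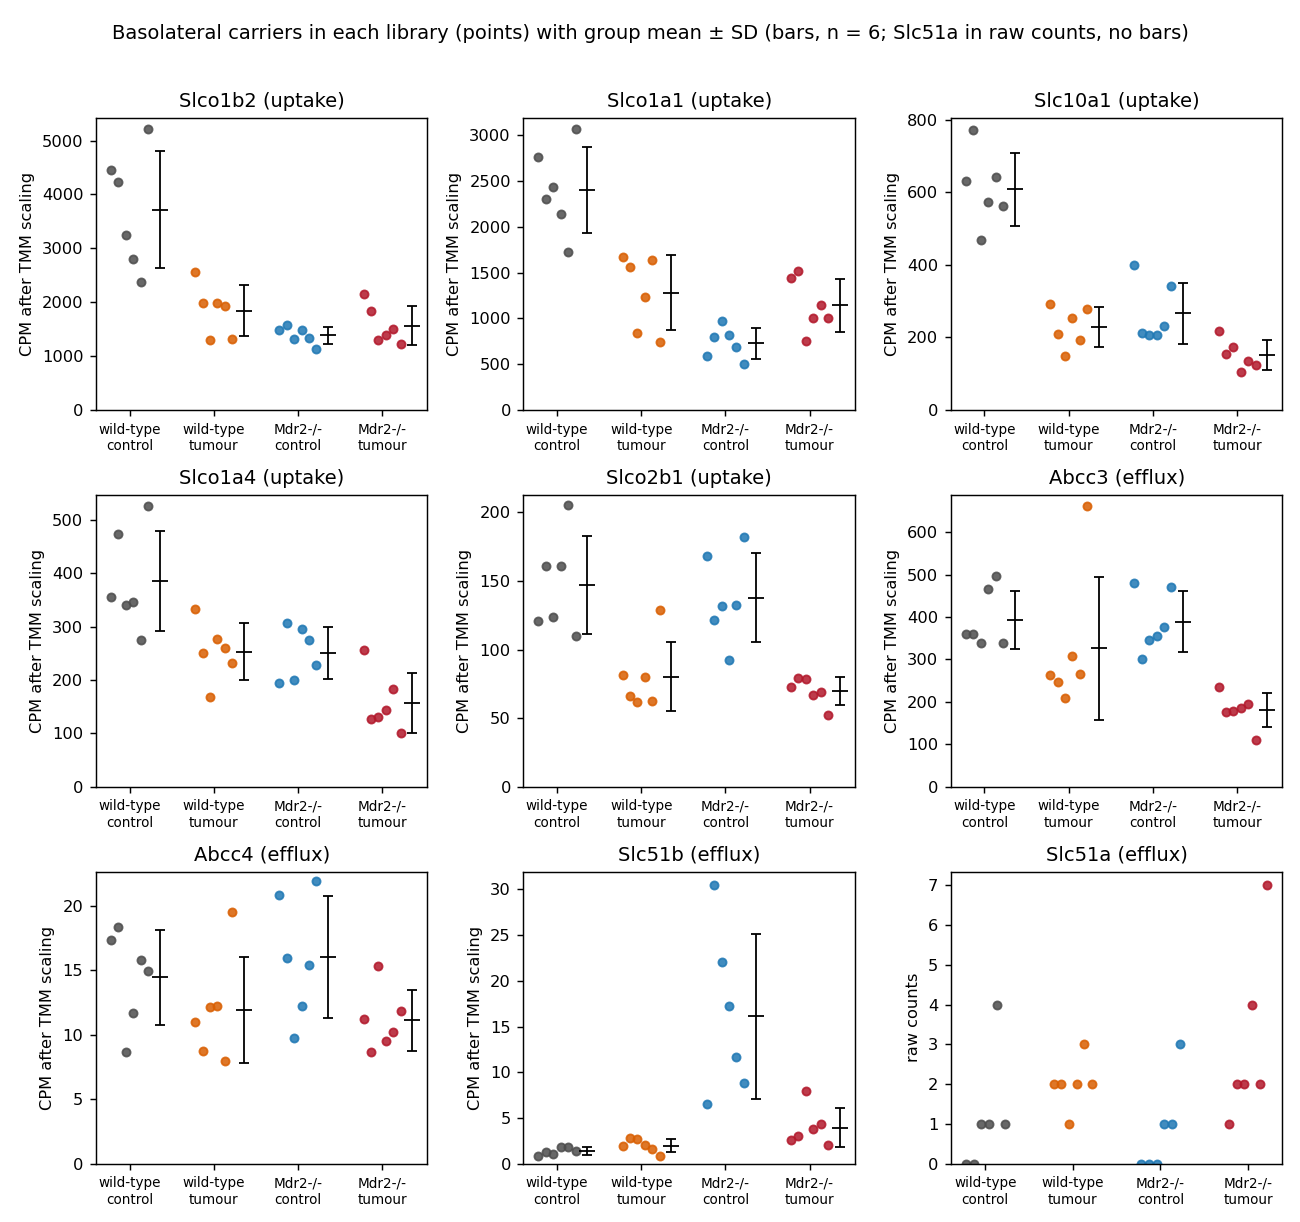
Levels of the 9 carriers in each of the 24 libraries, by group. The vertical axes give CPM after TMM scaling from 0 (raw counts for Slc51a), points are libraries in the order of their replicate numbers, and bars are group means ± SD (n = 6). The points of Slco1b2, Slco1a1 and Slc10a1 in wild-type controls lie above those in Mdr2-/- controls, and those of Slc51b lie below.

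In livers without tumours, loss of Abcb4 went with lower RNA of 4 uptake carriers and higher RNA of a single exporter subunit. Slco1a1 was 3.30-fold, Slco1b2 2.69-fold, Slc10a1 2.29-fold and Slco1a4 1.54-fold lower in Mdr2-/- than in wild-type controls, and Slc51b was 11.6-fold higher. Slco2b1, Abcc3 and Abcc4 did not pass the test. Called at an adjusted p under 0.05, 5 of the 8 tested members changed, beside 50.5% of all genes. Fallen were 4 of 5 uptake carriers and none of 3 exporters, beside 24.3% of all genes, and risen were none of the uptake carriers and 1 exporter, beside 26.2% of all genes.

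Slco1b2 ranged from 2378 to 5222 CPM in wild-type controls, with a median of 3737 CPM, and from 1131 to 1574 CPM in Mdr2-/- controls, with a median of 1404 CPM. The highest Mdr2-/- control lay well under the lowest wild-type control. The log2 difference was -1.43 ± 0.20 (SE; edgeR quasi-likelihood test, Benjamini-Hochberg adjusted p = 3.47e-06). Slco1a1 ranged from 1725 to 3064 CPM around a median of 2372 CPM in wild-type controls and from 497 to 971 CPM around 746 CPM in Mdr2-/- controls. Here too the groups did not overlap, and the difference was -1.72 ± 0.22 (edgeR adjusted p = 1.13e-06). Slc10a1, the sodium-coupled bile acid carrier, ranged from 469.7 to 773 CPM with a median of 603 CPM, against 206 to 399 CPM with a median of 222 CPM. Replicates 1 and 6 of the Mdr2-/- controls, at 399 and 342 CPM, were above the other 4, which lay between 206 and 231 CPM, and all 6 were below wild type (-1.19 ± 0.20, edgeR adjusted p = 4.55e-05). Slco1a4 fell by 0.63 ± 0.20 on the log2 scale (edgeR adjusted p = 0.0131), from 274 to 526 CPM (median 351 CPM) to 195 to 306 CPM (median 252 CPM), with overlapping groups. On the authors' TPM its difference was -0.16 and did not pass the test (limma on log2(TPM + 1), adjusted p = 0.423), and with total library size as the scale it was -0.32 (edgeR adjusted p = 0.131). Under all alternatives run, single libraries left out included, the other 3 falls and the rise of Slc51b stayed called, at -1.50 to -0.92 for Slco1b2, -1.82 to -1.28 for Slco1a1, -1.36 to -0.77 for Slc10a1 and 3.26 to 3.83 for Slc51b.

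Slc51b, the small subunit of the organic solute transporter, was at 0.855, 1.31, 1.03, 1.83, 1.88 and 1.36 CPM in wild-type control replicates 1 to 6, which rest on 14 to 43 counts. In Mdr2-/- controls it was at 6.53, 30.5, 22.1, 17.2, 11.7 and 8.82 CPM, or 174 to 844 counts. The groups did not overlap, and replicates of the Mdr2-/- controls spread over a wide range. The difference was 3.53 ± 0.38 (edgeR adjusted p = 9.35e-08). Slc51a, the other subunit, without which Slc51b is not known to carry bile acids, gave 0, 0, 1, 1, 4 and 1 counts in wild-type controls and 0, 0, 0, 1, 1 and 3 counts in Mdr2-/- controls. It thus stood at or near the limit of 3 counts that a count of 0 allows, in the group where Slc51b was highest as well, and no fold is given. Of the exon bases of Slc51a, 567 of 3198 lie opposite to Pcyt1a, which was at group means of 58.0 to 104 CPM, and the sources used here do not say whether the counts used strand. The overlap of Slc51b with Rasl12 on the other strand is 91 of 709 exon bases, and Rasl12 was at 0.63 CPM or less in every library, under the lowest value of Slc51b.

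Abcc3, the exporter of conjugated bilirubin and bile acids, was at 338 to 496 CPM (median 361 CPM) in wild-type controls and at 302 to 481 CPM (median 366 CPM) in Mdr2-/- controls. The groups overlapped over most of their range. Its log2 difference was -0.02 with a 95% interval from -0.47 to 0.44 (edgeR adjusted p = 0.954). On TPM, which is not scaled for composition, the difference was 0.43 (limma on log2(TPM + 1), adjusted p = 0.122). Abcc4, an exporter of bile acids with glutathione, was at 8.65 to 18.3 CPM (median 15.4 CPM) against 9.78 to 22 CPM (median 15.7 CPM), with an interval from -0.30 to 0.60. Slco2b1 was at 110 to 205 CPM (median 142 CPM) against 92.2 to 182 CPM (median 132 CPM), with an interval from -0.48 to 0.29. It shares 471 of 5958 exon bases with Gm15635 on the other strand, which was at 1.59 CPM or less in every library. Over all genes the median difference was 0.03 on the TMM-scaled counts and 0.30 on log2(TPM + 1).

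In wild-type mice all 5 uptake carriers were lower in tumour-bearing than in control livers, and none of the exporters passed the test. Slc10a1 was 2.66-fold, Slco1b2 2.02-fold, Slco1a1 1.88-fold, Slco2b1 1.83-fold and Slco1a4 1.52-fold lower. Called were 5 of 8 members, beside 28.4% of all genes. All 5 were called as fallen, beside 11.5% of all genes, and none as risen, beside 16.9%.

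Slc10a1 fell from 469.7 to 773 CPM in controls to 148 to 291 CPM in wild-type tumour-bearing livers, with a median of 231 CPM. The groups were apart, and the difference was -1.41 ± 0.20 (edgeR adjusted p = 1.54e-05). Slco1a1 fell to 740 to 1670 CPM with a median of 1398 CPM, again without overlap, by 0.91 ± 0.22 on the log2 scale (edgeR adjusted p = 0.00259). Slco1b2 fell to 1296 to 2558 CPM with a median of 1952 CPM, by 1.01 ± 0.20 on the log2 scale (edgeR adjusted p = 0.000401). A single tumour-bearing library, replicate 1, was above the lowest control. Slco2b1 was at 81.1, 66.1, 62.1, 80.3, 62.7 and 129 CPM, and replicate 6 alone lay within the range of controls (-0.87 ± 0.19, edgeR adjusted p = 0.00121). Slco1a4 was at 168 to 333 CPM with a median of 255 CPM, and overlapped with controls (-0.61 ± 0.20, edgeR adjusted p = 0.0271). This call was lost on TPM (-0.30, limma on log2(TPM + 1), adjusted p = 0.173), with total library size (-0.32), with the title number as covariate (-0.64) and without tumour-bearing replicate 3 (-0.52) or control replicate 2 (-0.54) or 6 (-0.50).

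The same replicate 6 set the values of the exporters in wild-type tumour-bearing livers. Abcc3 was at 264, 246, 208, 309, 266 and 661 CPM, so that 5 libraries lay under all 6 controls and 1 lay above them. The difference over all 6 was -0.27 with an interval from -0.73 to 0.18 (edgeR adjusted p = 0.383). Without replicate 6 it was -0.60 and passed the test (edgeR adjusted p = 0.00835). Abcc4 was at 19.5 CPM in replicate 6 and at 7.96 to 12.2 CPM in the other 5, with a difference of -0.28 over all 6 (interval -0.73 to 0.18) and of -0.47 without that library, which did not pass. Slc51b was at 0.863 to 2.82 CPM with a median of 2.01 CPM, and differed from controls by 0.52 ± 0.38 (edgeR adjusted p = 0.322). In replicate 6 the 7 nuclear RNAs took 2.30% of the counts, against 5.51 to 6.51% in the other 5, and the part of this in the level of the exporters was not tested. At an unadjusted p under 0.05 in edgeR 0 of the 3 tested exporters differed as well, and DESeq2 called 0. Slc51a gave 1 to 3 counts per library.

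In Mdr2-/- mice the tumour-bearing livers had lower Slc10a1, Slco1a4, Slco2b1, Abcc3 and Slc51b than their controls, and higher Slco1a1. Slc51b was 4.08-fold, Abcc3 2.15-fold, Slco2b1 1.97-fold, Slc10a1 1.76-fold and Slco1a4 1.59-fold lower, and Slco1a1 was 1.57-fold higher. Called were 6 of 8 members, beside 34.8% of all genes. Fallen were 3 of 5 uptake carriers and 2 of 3 exporters, beside 17.0% of all genes, and risen was 1 uptake carrier, beside 17.9% of all genes.

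Slc51b was at 2.54, 3.05, 7.92, 3.77, 4.37 and 2.05 CPM in Mdr2-/- tumour-bearing livers, on 69 to 237 counts, against 6.53 to 30.5 CPM in their controls. Replicate 3 alone lay above the lowest control. The difference was -2.03 ± 0.35 (edgeR adjusted p = 0.000191). Abcc3 was at 111 to 236 CPM with a median of 183 CPM, under all 6 controls at 302 to 481 CPM (-1.11 ± 0.22, edgeR adjusted p = 0.000946). Slco2b1, at 52.4 to 79.4 CPM with a median of 70.8 CPM, was likewise under all controls (-0.98 ± 0.19, edgeR adjusted p = 0.000603). Slc10a1 fell further from its already low control level to 104 to 218 CPM with a median of 144 CPM, with 1 tumour-bearing library inside the range of controls (-0.81 ± 0.20, edgeR adjusted p = 0.00431). Slco1a4 was at 99.9 to 256 CPM with a median of 137 CPM (-0.67 ± 0.20, edgeR adjusted p = 0.015). Abcc4 was at 8.70 to 15.3 CPM with a median of 10.7 CPM and did not pass (-0.53, interval -0.98 to -0.08, edgeR adjusted p = 0.0622), but did so without any 1 of 5 libraries (-0.64 to -0.53), in the fit of these groups alone (-0.57) and with no filter on low counts (-0.62). Slc51a gave 1, 2, 2, 4, 2 and 7 counts.

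Slco1a1 was at 1439, 1514, 753, 1007, 1149 and 999 CPM in Mdr2-/- tumour-bearing livers and at 588, 800, 971, 821, 691 and 497 CPM in their controls. 5 of 6 tumour-bearing libraries lay above every control. The rise was 0.65 ± 0.21 (edgeR adjusted p = 0.0228), and it no longer passed when 1 of 4 libraries was left out, namely tumour-bearing replicate 1 (0.57) or 2 (0.55) or control replicate 1 (0.60) or 6 (0.56). Slco1b2, at 1226 to 2147 CPM with a median of 1443 CPM, differed by 0.18 with an interval from -0.22 to 0.57 (edgeR adjusted p = 0.486). The share of the 7 nuclear RNAs was higher in each Mdr2-/- tumour-bearing library than in every Mdr2-/- control. With that share as a covariate, 2 of the 6 members stayed called, Slco1a4 at -0.93 and Slc51b at -2.54. Slc10a1 was then at -0.47, Slco2b1 at -0.33, Abcc3 at -0.41 and Slco1a1 at 0.16, and Slco1b2 changed sign to -0.20. The 7 RNAs were picked in an earlier look at these data, and as their share separates these groups, it cannot be told apart from the tumour effect.

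**Figure D2:**
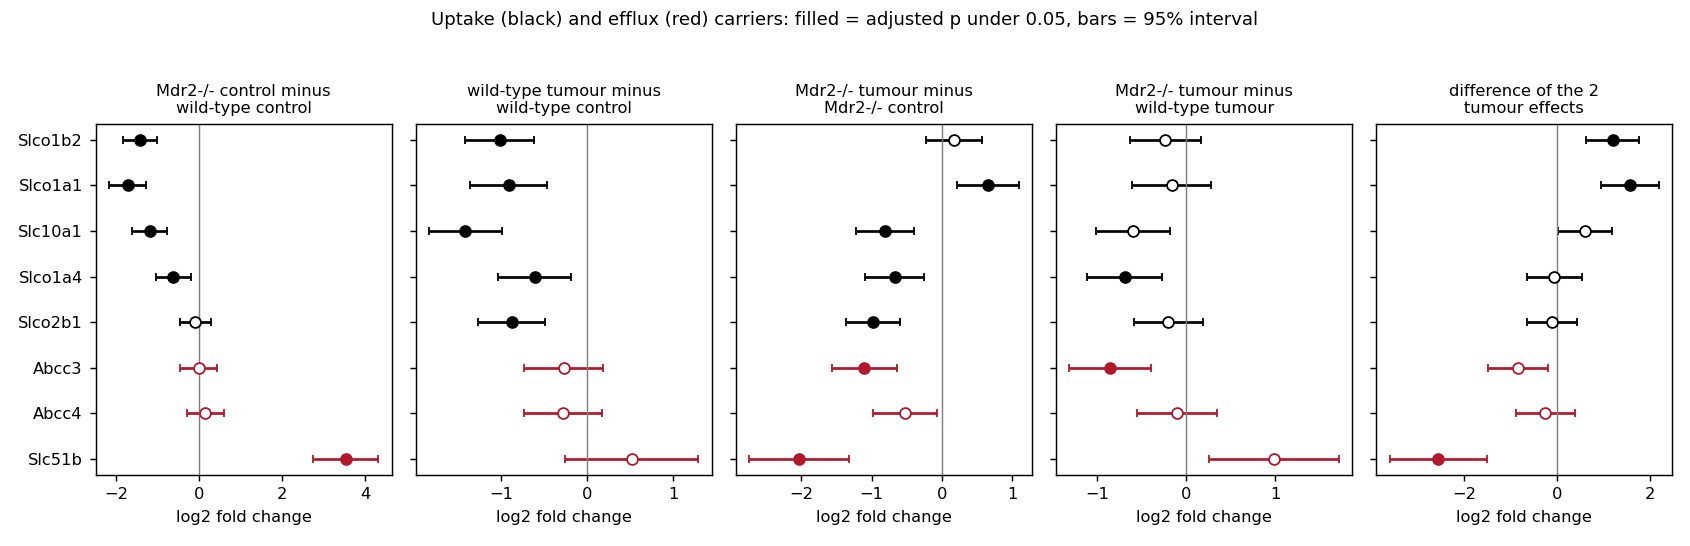
Log2 fold changes of the 8 tested carriers in the 5 comparisons. Points are estimates of the edgeR model over 24 libraries, bars are 95% intervals, filled points passed an adjusted p under 0.05, black marks uptake carriers and red marks exporters, and each panel has its own horizontal scale. For genotype in controls Slco1a1 lies left and Slc51b right of 0, and for tumour in Mdr2-/- each lies on the other side.

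The tumour effect itself differed between the genotypes for 3 members. Slco1a1 fell in wild type and rose in Mdr2-/-, a difference of 1.56 ± 0.30 (edgeR adjusted p = 0.00103). For Slco1b2 the difference was 1.19 ± 0.27 (edgeR adjusted p = 0.00367). For Slc51b it was -2.55 ± 0.51 (edgeR adjusted p = 0.00129). Called were 3 of 8 members, beside 25.3% of all genes, 2 uptake carriers upward beside 11.9% and 1 exporter downward beside 13.4%. Slc10a1 missed the threshold at 0.60 (interval 0.01 to 1.18, edgeR adjusted p = 0.117), and Abcc3 at -0.83 (interval -1.48 to -0.19, edgeR adjusted p = 0.0518). The latter passed without any 1 of 8 libraries (-0.93 to -0.89), by DESeq2 (-0.85, adjusted p = 0.0391), with total library size (-0.89) and on log2(TPM + 0.1) (-0.93). Slco1a4 at -0.06 (interval -0.66 to 0.53), Slco2b1 at -0.11 (interval -0.65 to 0.44) and Abcc4 at -0.25 (interval -0.89 to 0.39) gave no call. The comparisons within a genotype and between the genotypes share their control libraries, so that their values are not independent.

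Between the tumour-bearing livers of the genotypes, 2 of 8 members differed, beside 11.1% of all genes. Slco1a4 was lower in Mdr2-/- (-0.69 ± 0.20, edgeR adjusted p = 0.0281), as was Abcc3 (-0.85 ± 0.22, edgeR adjusted p = 0.014). Both were called as fallen, beside 4.0% of all genes, and none as risen, beside 7.13%. Slco1a4 had 99.9 to 256 CPM in Mdr2-/- against 168 to 333 CPM in wild type, and Abcc3 had 111 to 236 CPM against 208 to 661 CPM, with overlap in both. Neither call held when the 12 tumour-bearing libraries were fitted alone (edgeR adjusted p = 0.0616 for Slco1a4 and 0.0529 for Abcc3) or on TPM, and that of Slco1a4 was lost without Mdr2-/- replicate 2, 3, 4 or 6 or wild-type replicate 1, 2 or 4 (-0.69 to -0.59). Slco1b2 differed by -0.24 (interval -0.63 to 0.16) and Slco1a1 by -0.16 (interval -0.60 to 0.28), so that differences in either carrier as large as those between the controls lay outside the intervals. Slc51b was 1.98-fold higher in Mdr2-/- without passing the test (0.99 ± 0.35, edgeR adjusted p = 0.0715), as was Slc10a1 lower (-0.60 ± 0.20, edgeR adjusted p = 0.0551). Among the alternatives both passed by DESeq2 (adjusted p = 0.0486 and 0.032) and without Mdr2-/- replicate 1 (1.08 and -0.73). On each TPM scale the exporter subunit Slc51b passed, and none of the uptake carriers did. Slco2b1 had an interval from -0.59 to 0.19 and Abcc4 one from -0.55 to 0.35.

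Uptake was set against efflux within each library, as the summed TPM of the 5 uptake carriers over that of the 4 exporters. This ratio does not depend on how libraries are scaled to each other, and it is given as a description with no test. It was 27.9, 27.2, 23.6, 16.2, 13.7 and 32.5 in wild-type controls, 21.0, 17.9, 12.9, 14.2, 17.2 and 5.25 in wild-type tumour-bearing livers, and 7.28, 6.74, 6.68, 7.25, 7.08 and 6.01 in Mdr2-/- controls. In Mdr2-/- tumour-bearing livers it was 19.0, 21.4, 12.0, 14.3, 15.2 and 21.8. Mdr2-/- controls lay below all libraries of the other groups except wild-type tumour-bearing replicate 6, and within a span of 6.01 to 7.28 they varied least. Summed uptake RNA was 2733 ± 456 TPM in wild-type controls and 1617 ± 209, 1455 ± 103 and 1613 ± 252 TPM in wild-type tumour-bearing, Mdr2-/- control and Mdr2-/- tumour-bearing livers, which overlapped. Summed efflux RNA was 123 ± 30.4, 131 ± 75.4, 214 ± 22.8 and 96.1 ± 17.4 TPM in the same order. Exporters thus took 4.45% of the carrier TPM in wild-type controls, against 12.8% in Mdr2-/- controls. TPM is not scaled for composition. On TMM-scaled counts the efflux sum was 349 to 514 CPM (median 380) in wild-type and 349 to 508 CPM (median 394) in Mdr2-/- controls. In their tumour-bearing livers it was 223 to 681 CPM (median 277) and 125 to 250 CPM (median 201). The uptake sum was 5225 to 9484 CPM in wild-type and 2380 to 3014 CPM in Mdr2-/- controls, without overlap.

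Abcc3 made up most of the efflux sum in every group, from 72.8 ± 12.4% in Mdr2-/- controls to 93.8 ± 1.0% in wild-type controls. The share of Slc51b was 2.61 ± 0.476% in wild-type controls, against 24.2 ± 13% in Mdr2-/- controls, where it ran from 9.47% to 43.5% between libraries. It was 5.45 ± 2.82% in wild-type and 13.9 ± 5.73% in Mdr2-/- tumour-bearing livers. Since Slc51a was near 0, its partner's RNA is counted in these sums without RNA of the other subunit at a like level. Within the uptake sum Slco1b2 held 44.8 ± 4.79% in wild-type and 43.8 ± 3.41% in Mdr2-/- controls. In their tumour-bearing livers it held 46.2 ± 2.25% and 48.0 ± 1.15%. Slc10a1 held 22.5 ± 5.03% in wild-type and 24.8 ± 7.27% in Mdr2-/- controls, and 17.4 ± 4.69% and 13.8 ± 2.94% in their tumour-bearing livers.

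**Figure D3:**
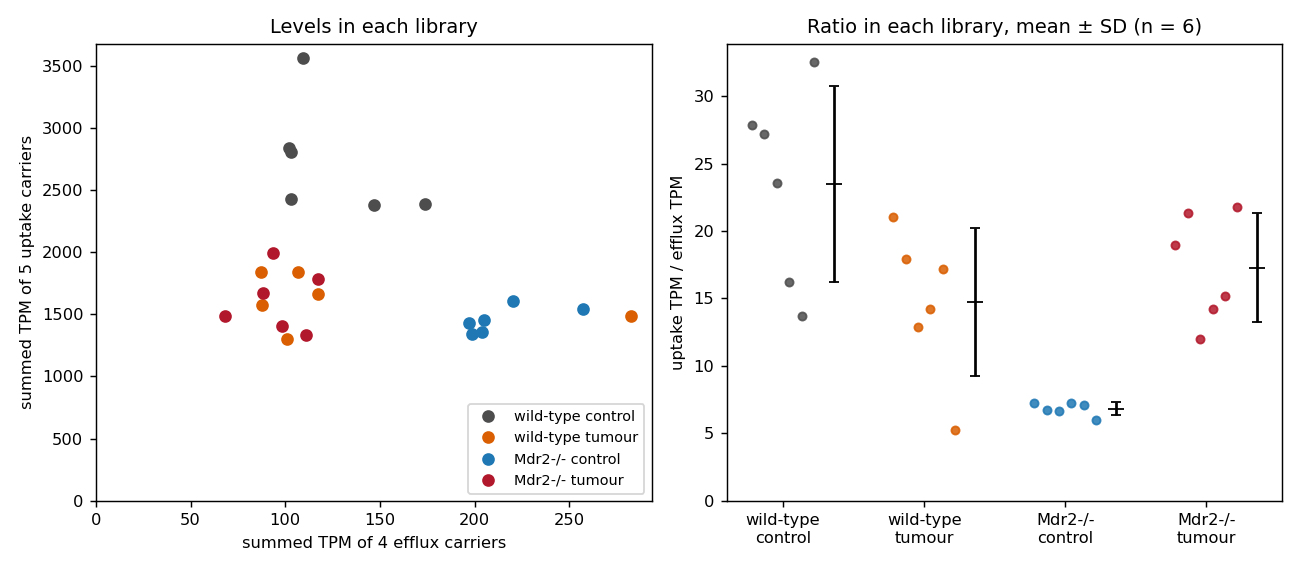
Summed TPM of the 5 uptake carriers against that of the 4 exporters in each library (left), and their ratio by group with mean ± SD, n = 6 (right). The 6 Mdr2-/- controls sit between 6.01 and 7.28, and wild-type tumour-bearing replicate 6 sits at 5.25 with an efflux sum of 283 TPM.

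Within groups the ratio moved with the share of the nuclear RNAs in some cases. Wild-type control replicates 4 and 5, with shares of 3.52% and 2.91%, had ratios of 16.2 and 13.7. The other 4, with shares of 4.14 to 5.42%, had ratios of 23.6 to 32.5. In Mdr2-/- controls the share ranged from 1.74 to 4.29% while the ratio stayed within 6.01 to 7.28. The 3 Mdr2-/- controls with shares of 3.55 to 4.29% had ratios of 6.68 to 7.25, against 13.7 and 16.2 in the 2 wild-type controls with shares of 2.91 and 3.52%. The part of the nuclear RNA share in the ratio was not tested.

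**Figure D4:**
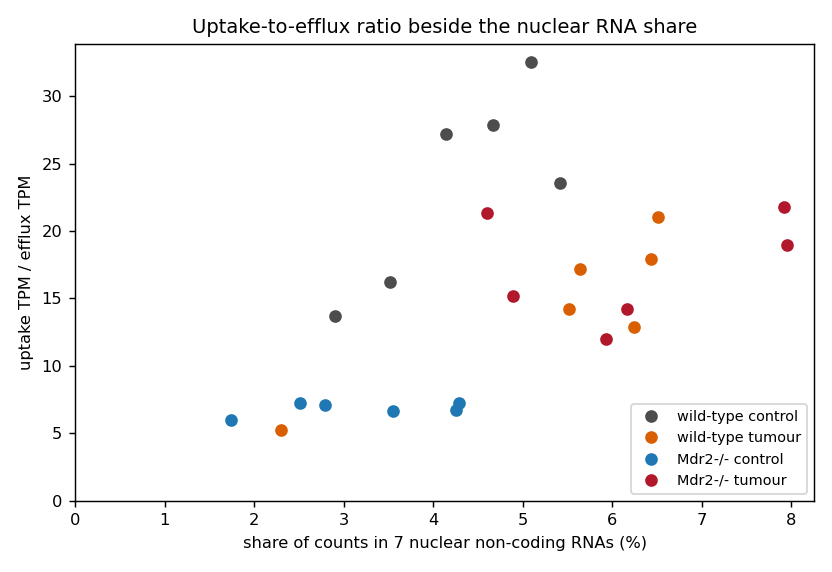
Uptake-to-efflux ratio (vertical axis) against the percent of counts in 7 nuclear non-coding RNAs (horizontal axis), with 1 point per library and both axes from 0. Mdr2-/- controls form a flat row between 6.01 and 7.28 over shares of 1.74 to 4.29%, and wild-type tumour-bearing replicate 6 lies beside them at a share of 2.30%.

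Other carriers of the same membrane were read from a list of 16 genes, all of which were tested. In Mdr2-/- controls 5 were called as risen and 7 as fallen, beside 26.2% and 24.3% of all genes, and the list's median log2 fold change was -0.40 against 0.03 over all genes. Slc22a30 and Slc22a28, members of the organic anion transporter family, fell by 1.85 ± 0.25 and 1.85 ± 0.26 there. Slc22a30 fell by 0.97 ± 0.24 in wild-type tumour-bearing livers, was at 0.48 ± 0.24 in those of Mdr2-/- without passing (edgeR adjusted p = 0.112), and differed by 1.45 ± 0.34 between the tumour effects (edgeR adjusted p = 0.00402). Slc22a28 fell by 1.07 ± 0.26 in wild type, rose by 0.69 ± 0.26 in Mdr2-/- (edgeR adjusted p = 0.0424) and differed by 1.76 ± 0.37 between the tumour effects (edgeR adjusted p = 0.00171). Slc22a7 (OAT2) fell by 1.02 ± 0.28 in Mdr2-/- controls and by 1.18 ± 0.28 in wild-type tumour-bearing livers. In tumour-bearing livers of wild type 3 of the 16 rose and 8 fell, beside 16.9% and 11.5% of all genes, and in those of Mdr2-/- 4 rose and 5 fell, beside 17.9% and 17.0%. The exporters Abcc1 and Abcc5 rose in both, Abcc5 by 1.01 ± 0.16 in wild type and 1.02 ± 0.15 in Mdr2-/- (edgeR adjusted p = 3.18e-05 and 5.07e-05), from group means of 7.70 and 10.1 CPM. Abcc6 fell in both, by 0.79 ± 0.21 and 0.85 ± 0.21.

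Of 8 further Slco genes, 5 passed the filter. Slco1a6, described mainly from mouse kidney and next but one to Slco1a1 on chromosome 6, was at 0.445 CPM in wild-type and 0.185 CPM in Mdr2-/- controls. In tumour-bearing livers it was at 13.8 and 18.8 CPM. It rose by 5.03 ± 0.44 in wild type (edgeR adjusted p = 9.64e-09) and by 6.62 ± 0.48 in Mdr2-/- (edgeR adjusted p = 1.92e-09), whereas Slco1a4 in the same stretch fell in both. Of the 100-base stretches of Slco1a1 0.614%, and of those of Slco1a4 0.640%, occur in each other or in Slco1a5, and none in Slco1a6. Kidney tubule markers were tested for 5 of 13 genes, of which 4 rose in Mdr2-/- and 3 in wild-type tumour-bearing livers, beside 17.9% and 16.9% of all genes. Their summed level was 14.3 to 47.9 CPM and 2.33 to 12.7 CPM in these groups, against 1.44 to 4.25 CPM in controls, and their part in the level of Slco1a6 was not tested. Slco3a1 rose in both tumour comparisons (1.87 ± 0.35 in wild type and 1.32 ± 0.33 in Mdr2-/-) and in Mdr2-/- controls (1.58 ± 0.34).

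Regulators of bile acid and hepatocyte genes were read from a list of 23. Of 21 tested regulators, 1 rose and 7 fell in Mdr2-/- controls, beside 26.2% and 24.3% of all genes, with a median of -0.11. Nr1h4 (FXR) fell by 0.37 ± 0.15 (edgeR adjusted p = 0.0447), and Nr0b2 (SHP), the repressor that FXR induces, differed by -0.11 ± 0.35 without passing. The glucocorticoid receptor Nr3c1 fell by 0.85 ± 0.16, Ahr by 0.85 ± 0.17 and Klb, the co-receptor for FGF15, by 1.12 ± 0.20 in Mdr2-/- controls. In wild-type tumour-bearing livers 2 rose and 7 fell, beside 16.9% and 11.5% of all genes. Among the fallen were Klb by 1.08 ± 0.20, Foxa2 by 1.07 ± 0.22 and Nr5a2 by 0.72 ± 0.12. In Mdr2-/- tumour-bearing livers none rose and 7 fell, beside 17.9% and 17.0% of all genes. Among these were Hnf4a by 1.12 ± 0.25 and Rxra by 1.04 ± 0.28. Hnf4a stood at 550 CPM in Mdr2-/- controls and 253 CPM in their tumour-bearing livers. Its tumour effect differed between genotypes by -0.99 ± 0.35 (edgeR adjusted p = 0.0417), and its part in the level of the carriers was not tested.

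Of carriers of the canalicular membrane of hepatocytes or the apical membrane of other epithelia, 12 were tested, Abcb4 among them. In Mdr2-/- controls 3 rose and 2 fell, beside 26.2% and 24.3% of all genes. The fallen include Abcb4 itself, the targeted gene, whose fall was set by the design. Abcb1b, a multidrug exporter, rose by 4.27 ± 0.29 and Slc10a2, the apical sodium-dependent bile acid carrier of bile ducts and ileum, by 1.61 ± 0.26. In tumour-bearing livers Abcb11, the bile salt export pump, fell by 1.36 ± 0.22 in wild type and 1.02 ± 0.22 in Mdr2-/-. The 12 counted 1 risen and 3 fallen in the wild-type tumour comparison, beside 16.9% and 11.5% of all genes, and none risen and 7 fallen in that of Mdr2-/-, beside 17.9% and 17.0%. Of 14 genes of bile acid synthesis and conjugation, 9 fell and none rose in Mdr2-/- controls, beside 24.3% and 26.2% of all genes, led by Cyp7b1 (-2.45 ± 0.24) and Cyp8b1 (-1.63 ± 0.41).

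Slco1a1 is known to be more abundant in male than in female mouse liver, and sex-biased genes were therefore read beside it. The labels give no sex. Xist, the RNA that coats the inactive X chromosome of females, was at 533 CPM or more in each of the 24 libraries, and the Y-linked genes Ddx3y, Eif2s3y, Kdm5d and Uty were at 0.81 CPM or less in each. Of 13 female-biased genes, 12 fell in Mdr2-/- controls and 11 in wild-type tumour-bearing livers, beside 24.3% and 11.5% of all genes, with medians of -2.85 and -1.84. Of 11 male-biased genes, 6 rose and 3 fell in Mdr2-/- controls and 5 rose and 3 fell in wild-type tumour-bearing livers, where 26.2% and 16.9% of all genes rose. Cyp7b1 and Hsd3b5, which are male-biased, were among the fallen, the latter by 4.62 ± 0.49 in Mdr2-/- controls, and Mup20 (4.34 ± 0.54) was among the risen. In both comparisons Slco1a1 thus fell together with the female-biased genes and with some of the male-biased ones. This did not extend to the Mdr2-/- tumour comparison, in which Slco1a1 rose. There 4 of the 13 female-biased genes fell and none rose, with a median of -0.61. Of the 11 male-biased genes 1 rose and 2 fell, beside 17.9% of all genes risen and 17.0% fallen.

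The genes whose levels ran closest to each member were found by the mean absolute difference of centred log2 CPM over the 24 libraries, among 12682 genes. For Slco1b2 these were Acadsb (0.116), the growth hormone receptor gene Ghr (0.134) and Hsdl2 (0.158), against a median over candidates of 0.615. For Slco1a1 they were Slc22a30 (0.170), Zfp942 (0.174) and Tmem30a (0.182), against 0.717. For Slc10a1 they were Cyp2c39 (0.190), the prolactin receptor gene Prlr (0.192) and Serpina1e (0.197), against 0.754. Among the genes closest to Slco1a4 were Ugt1a9 (0.199) and Hspa9 (0.216), and Slco2b1 ran with the plasma protein genes Plg (0.116) and Itih2 (0.123) and with Ggcx (0.124). Of the exporters, Abcc3 ran with Uroc1 (0.152), Shpk (0.162) and Maob (0.171), and Abcc4 with Abhd15 (0.184), Tcirg1 (0.194) and Irf2bpl (0.209). The nearest genes of Slc51b were Entpd2 (0.530), Smpdl3b (0.541) and Dnah1 (0.555), against a median of 1.17. This absolute measure grows with a gene's own spread, so that the larger distances do not show a more isolated pattern. The SD of log2 levels was 1.45 for Slc51b, and 0.431 (Abcc4) to 0.826 (Slc10a1) for the other tested members.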

How the data were processed

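Total RNA of 24 mouse livers was sequenced after depletion of ribosomal RNA, per the labels' protocols. Deposited were the authors' raw counts, whole numbers per gene, and their TPM, which are scaled by gene length to a fixed total per library. Per the submitters' processing notes, mm39 and DESeq2 were used. For aligner, counter, annotation release and use of strand, the sources used here say nothing. Libraries were grouped by treatment label and numbered in accession order. All 60 replicate pairs differed beyond sampling noise (chi-square per gene 25.58 to 259.8). Of 49315 genes, 174 had no symbol (0.0111 to 0.0178% of counts).

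Counts were fitted in R 4.3.3 with edgeR 4.0.16 (filterByExpr with minimum count 10, TMM, robust quasi-likelihood, 2-sided) as 1 model with a mean per group. Calls required a Benjamini-Hochberg adjusted p under 0.05 over 17216 genes. The biological coefficient of variation was 0.272. 1 CPM rests on 16.4 to 34.2 counts. On data simulated for the wild-type tumour comparison over 17209 genes, edgeR called 68 of the 100 simulated 2-fold changes, 99 of the 100 simulated 4-fold changes, and 11 genes made without a change. Members and lists were chosen with earlier results of these data known. Of each list the text names the called genes of at least 1 CPM with the largest change, up to 3 per comparison, and any regulator, other Slco gene or other basolateral carrier. For each member the 3 genes most alike were taken among genes of mean CPM of 1 or more. Some genes and motifs that these rules name are not reported here. Alternatives were DESeq2 1.42.0, DESeq2 size factors, upper-quartile factors, total library size, no filter, fits of only the groups compared, limma 3.58.1 on log2 TPM with a pseudocount of 1 or 0.1, the title number (under 2000 or not) or the log2 nuclear RNA share as a covariate, and fits without 1 library or without the 2 that stood apart. Title numbers were 2000 or more in all wild-type tumour-bearing libraries and under 2000 in all but 1 wild-type control. That covariate thus nearly coincides with the wild-type tumour comparison. Promoters and motifs were read in Python 3.11.15 from RefSeq tables of GRCm38.p6, which is not the assembly of the counts. Overlaps of exons came from the GENCODE annotation of the same older assembly.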

Additional observations from a re-analysis of the deposited data

Results flagged for a closer look

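Replicate 6 of the wild-type tumour-bearing livers lay far from the other 5 libraries of its group for 3 carriers. Slco2b1 was at 129 CPM there, with the nearest library at 81.1 CPM, Abcc3 at 661 CPM with the nearest at 309 CPM, and Abcc4 at 19.5 CPM with the nearest at 12.2 CPM. 8 members were looked at in 4 groups each, and chance flags about 1 in 20 such groups. All 3 flags fell in the same library, so they are not independent of each other and cannot be set against that rate. The 7 nuclear non-coding RNAs took 2.30% of the counts in that library and 5.51 to 6.51% in the others of its group, and their part in these levels was not tested.

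The tumour effect differed between the genotypes, by the test of the difference itself in edgeR, for Slco1a1 (1.56 ± 0.30 on the log2 scale, adjusted p = 0.00103), Slco1b2 (1.19 ± 0.27, adjusted p = 0.00367) and Slc51b (-2.55 ± 0.51, adjusted p = 0.00129).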

How the results depend on the processing

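Over 8 members and 5 comparisons, 391 of 472 values kept direction and call under alternatives other than leaving out 1 library, and 916 of 960 under those. 40 and 12 changed sign, none with a call on either side. Causes were not tested beyond what is stated. No paired analysis was possible because the replicate numbers follow accession order and pair no samples.

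For the Mdr2-/- tumour effect, 6 members were called, 2 with the nuclear RNA share as covariate (5 to 7 without 1 library). For the wild-type tumour effect, 5 were called, 3 on unfiltered log2(TPM + 1) (4 to 6 without 1 library). For genotype in tumour-bearing livers, 2 were called, 4 by DESeq2, 1 on each TPM scale, 0 with only those groups in edgeR (4 at an unadjusted p under 0.05; Slco1a4 and Abcc3 at adjusted p = 0.0616 and 0.0529) and 1 to 4 without 1 library. Without Slco1a1 in the uptake sum, exporters took 6.03% in wild-type controls, 15.8% in Mdr2-/- controls and 8.22% in Mdr2-/- livers with tumours.

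Signs changed as follows. On log2(TPM + 1), with or without the filter, and log2(TPM + 0.1), the wild-type tumour effect of Abcc4 was 0.011 and 0.0059, genotype in controls gave Slco2b1 0.36 and 0.36 and Abcc3 0.43 and 0.44, and genotype in tumour-bearing livers gave Slco1a1 0.14 and 0.14, Slco1b2 0.047 and 0.047, Slco2b1 0.10 and 0.11 and Abcc4 0.16 and 0.20. With total library size, the wild-type tumour effect was 0.0059 for Abcc3 and 0.031 for Abcc4, genotype in controls 0.21 for Slco2b1 and 0.28 for Abcc3, and genotype in tumour-bearing livers 0.085 for Slco1a1, 0.0071 for Slco1b2, 0.050 for Slco2b1 and 0.15 for Abcc4. Total library size moved the median of all genes by 0.24 to 0.30 in the tumour and genotype comparisons. Abcc3 in controls was 0.020 without the filter and 0.0035 with the title number. With upper-quartile factors the difference of tumour effects was 0.037 for Slco1a4 and 0.012 for Slco2b1. With the nuclear RNA share, Slco1b2 was at -0.20 in Mdr2-/- tumour, Slco2b1 at 0.37 and Abcc4 at 0.16 for the difference, and Abcc4 at -0.088 and 0.068 for genotype without and with tumour. Without the 2 libraries that stood apart, Slco2b1 was at 0.065 for the difference and Abcc4 at 0.093 for genotype in tumour-bearing livers.

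Without 1 library, ranges that crossed 0 were -0.26 to 0.037 (Slco1a4) and -0.25 to 0.077 (Slco2b1) for the difference, -0.087 to 0.079 (Abcc3) and -0.19 to 0.048 (Slco2b1) for genotype in controls, and -0.21 to 0.096 (Abcc4) for genotype in tumour-bearing livers. Depth limits Slc51a, at 0 to 7 counts per library, for which a change was not detectable. Without the filter it passed in none of the 5 comparisons, at adjusted p of 0.179 or more in edgeR (0 at an unadjusted p under 0.05) and 0.147 or more in DESeq2 where given.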
